A study of Homo sapiens with 22 samples.

Results

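PSF, encoded by SFPQ, is a nuclear RNA-binding protein of the DBHS family. With its partners NONO and PSPC1 and the long noncoding RNA NEAT1 it builds paraspeckles, and it takes part in splicing and in transcription. Androgens switch on genes of prostate cells such as KLK3, which encodes prostate-specific antigen.

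RNA recovered with PSF by RNA immunoprecipitation (PSF-RIP) was compared between LTAD cells and LNCaP cells. The comparison rests on 4 of the 22 samples of the series, the PSF-RIP libraries of LTAD with vehicle, LTAD with DHT, LNCaP with vehicle and LNCaP with DHT, and on the 4 input libraries of the same cells. LNCaP is an androgen-responsive line from a prostate cancer metastasis to a lymph node. LTAD is a line whose name and origin the labels do not spell out. It was grown in medium free of phenol red with 10% charcoal/dextran-treated serum, which is depleted of steroids, whereas LNCaP was grown with 10% ordinary serum. Both lines spent 3 days in 2.5% charcoal-treated serum and then received vehicle (ethanol) or 10 nM dihydrotestosterone (DHT), an androgen, for 24 h. Each line is represented by its vehicle and its DHT library, so n = 2 libraries per line, and whether they were grown as independent cultures is not stated. With treatment as a factor, the p-values therefore measure only how these libraries spread around a DHT effect shared by the lines. That spread may be technical, and it also holds any DHT response that differs between the lines.

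The LTAD PSF-RIP libraries held 6798077 (vehicle) and 8690936 (DHT) mapped reads, and the LNCaP ones 5568110 and 4641602. Inputs were shallower, with 1073228 and 1586217 mapped reads in LTAD against 1831432 and 1743886 in LNCaP. Introns took 15.0% and 12.5% of intronic and nuclear exonic reads in the LTAD PSF-RIP libraries, against 19.98% and 17.1% in LNCaP. In the inputs these shares were 14.2% and 12.3% in LTAD, against 18.2% and 16.5% in LNCaP. The shares did not overlap between the lines, and their part in the results was not tested. Levels are given as counts scaled to the library total (CPM) of exonic sense reads, with TMM scaling, in the order vehicle, DHT, and are compared between libraries and not between genes. Differences are log2 values of LTAD over LNCaP.

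The stromal and leukocyte markers were low in both lines in PSF-RIP, with 4 of 16 reaching the expression filter and a summed level of 45.4 and 57.9 CPM in LTAD against 76.4 and 51.4 CPM in LNCaP. The collagen gene COL1A1 had 28.8 and 44.2 CPM in LTAD against 38.8 and 27.7 CPM in LNCaP, with the lines overlapping, while the stromal marker DCN and the leukocyte marker PTPRC had 0 exonic reads in PSF-RIP and input of both lines. KLK3 had 2.42 and 7.8 CPM in LTAD against 131 and 1100.0 CPM in LNCaP. Both LTAD libraries lay below both LNCaP libraries, and DHT libraries lay above vehicle libraries in both lines.

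Many RNAs differed between the lines in PSF-RIP. Of 12980 genes tested, 2346 (18.1%) passed an adjusted p of 0.05 by edgeR's quasi-likelihood test, which supplies every adjusted p given here. LTAD was higher for 1070 genes (8.24%) and lower for 1276 (9.83%). The difference was more than 2-fold for 453 of the higher and 580 of the lower genes, and more than 16-fold for 64 and 54. Libraries of the lines did not overlap for 57.4% of all tested genes. The number of calls rests on both vehicle libraries: a fit over 12 libraries, with those of the 22Rv1 line, gave 2739 calls, and it gave 1189 without the LTAD vehicle library and 998 without the LNCaP vehicle library.

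The 12 genes furthest above LNCaP ranged from log2 3.06 to 6.41. They were taken among called genes of at least median level, with the same sign in vehicle and DHT and no overlap between the lines. TRIB2 (chr2:12856998-12882858), a pseudokinase gene, had 280.1 and 325 CPM in LTAD against 2.15 and 5.2 CPM in LNCaP, a difference of log2 6.41 ± 0.25 (SE), adjusted p = 1.10e-06. PEG10 (chr7:94285637-94299006), an imprinted gene derived from a retrotransposon, had 74 and 84.8 CPM in LTAD against 0.718 and 1.16 CPM in LNCaP (log2 6.39 ± 0.30 (SE), adjusted p = 2.93e-06). The LTAD libraries lay far above those of LNCaP for both genes. S100A14 (chr1:153586732-153588808), a calcium-binding protein of the S100 family, had 87.8 and 67.7 CPM in LTAD against 1.44 and 0.577 CPM in LNCaP. FGFR2 (chr10:123237844-123357972), a fibroblast growth factor receptor, had 188 and 160.4 CPM in LTAD against 7.18 and 4.33 CPM in LNCaP (log2 4.91 ± 0.21 (SE), adjusted p = 1.76e-06). IGFBP5, a binding protein of insulin-like growth factors, had 46.2 and 90.9 CPM in LTAD against 2.63 and 1.44 CPM in LNCaP (chr2:217536828-217560272), with the DHT library above the vehicle library in LTAD and below it in LNCaP. SSFA2 (chr2:182756443-182795464), which encodes the sperm-specific antigen 2, had 1830.0 and 1290.0 CPM in LTAD against 126 and 71.3 CPM in LNCaP. The remaining members were TMTC1 (log2 5.39), HS3ST3B1 (4.7), a heparan sulfate sulfotransferase, PNMA2 (3.62), TNFAIP2 (3.47), PASD1 (3.15), a cancer-testis antigen, and ZNF516 (3.06), a zinc finger protein.

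The inputs showed the same difference for all 12, each past the threshold. TRIB2 was at log2 5.71 in input, S100A14 at 6.0, FGFR2 at 3.91 and ZNF516 at 2.67. Reads in the LNCaP inputs were few for PEG10, 2 in all against 164 in LTAD, a ratio of 96.1 (exact 95% interval 26.2 to 800.5, counting error only). Intronic reads of the same transcripts also lay above LNCaP where they were tested, with log2 6.31 for TRIB2, 5.66 for TMTC1 and 4.71 for FGFR2. The LNCaP libraries held 1 and 0 intronic reads for TRIB2 and 2 and 2 for TMTC1, so the sizes for these genes are uncertain. PEG10 and IGFBP5 had too few intronic reads to be tested.

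At the other end, the 12 lowest genes, taken in the same way, ranged from log2 -3.36 to -8.22. MMP16, a membrane-type matrix metalloproteinase (chr8:89049460-89339717), had 0.69 and 1.37 CPM in LTAD against 444 and 238 CPM in LNCaP (log2 -8.22 ± 0.30 (SE), adjusted p = 1.02e-06). ADAMTS1, a secreted metalloproteinase (chr21:28208606-28217728), had 4.66 and 5.34 CPM in LTAD against 873 and 1348 CPM in LNCaP (log2 -7.78 ± 0.21 (SE), adjusted p = 1.68e-07). KLK3 (chr19:51358171-51364020) followed at log2 -6.76 ± 0.28 (SE), adjusted p = 1.73e-06. The lines were far from overlapping in all 3. CLU, which encodes the secreted chaperone clusterin (chr8:27454434-27468954), had 0 and 6.03 CPM in LTAD against 242 and 96.4 CPM in LNCaP (log2 -5.55 ± 0.72 (SE), adjusted p = 0.0012). All 44 CLU reads of LTAD came from its DHT library, and the size of the difference is uncertain. The difference was log2 -4.53 without the LNCaP vehicle library, -8.42 in DESeq2 and -12.01 without the LTAD DHT library. ASPH, an aspartate beta-hydroxylase (chr8:62536269-62627199), had 33.5 and 18.1 CPM in LTAD against 1371 and 739 CPM in LNCaP, and ATP1B1, a sodium pump subunit (chr1:169075947-169101960), 63.3 and 20.5 CPM in LTAD against 636 and 383 CPM in LNCaP. EHF, an epithelial transcription factor of the ETS family (chr11:34642588-34684834), had 84.9 and 93.2 CPM in LTAD against 788 and 1128 CPM in LNCaP (log2 -3.41 ± 0.17 (SE), adjusted p = 3.55e-06). The others were SLC44A4 (log2 -4.62), NETO1 (-4.09), an auxiliary subunit of kainate receptors, NCAM2 (-4.07), a neural cell adhesion molecule, DUSP4 (-3.41), a MAP kinase phosphatase, and FAM198B (-3.36).

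The inputs again passed the threshold the same way for all 12. ADAMTS1 was at log2 -7.49 in input, KLK3 at -6.36, ASPH at -5.93 and EHF at -3.35. MMP16 and CLU had 0 input reads in LTAD, against 669 and 377 in LNCaP, so their input levels were at least 190.2-fold and 107-fold lower, against a floor of 3 reads over the LTAD inputs. Intronic reads were lower as well, by log2 -6.22 for MMP16, -6.15 for KLK3 and -3.83 for NETO1. Of the 24 genes at both ends, each passed the threshold without any 1 of the 4 libraries, and 22 passed in all 12 alternatives tried. CLU did not pass in DESeq2, nor FAM198B without a treatment term.

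**Figure D1:**
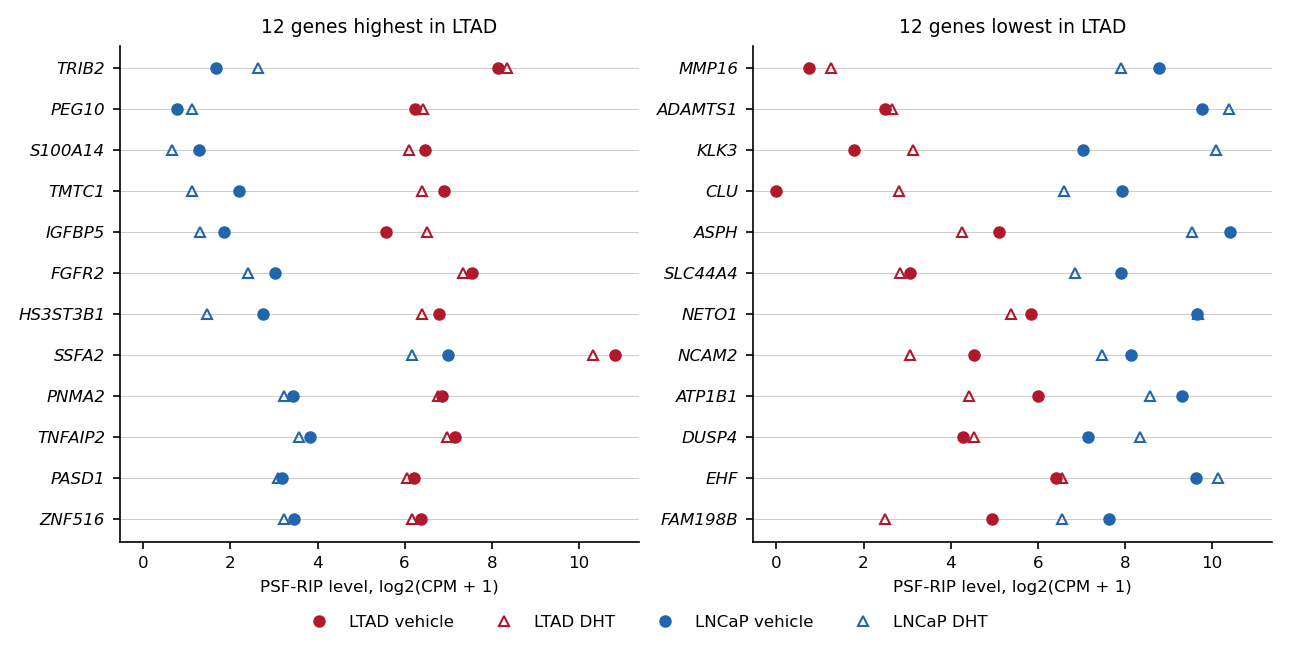
Level in each PSF-RIP library, as log2(CPM + 1), of the 12 genes highest and the 12 genes lowest in LTAD (red, LTAD; blue, LNCaP; filled circles, vehicle; open triangles, DHT). The 24 genes were chosen among those whose libraries do not overlap between the lines, so the separation in each row follows from the choice. CLU is at 0 in the LTAD vehicle library.

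PSF was also mapped by crosslinking (CLIP) in LNCaP cells, with 2 peak lists per treatment and none of LTAD used here. Several genes that differed between the lines carried a peak in each of the 4 lists. NETO1 held 15 and 16 peaks in the first vehicle and DHT lists and 5 and 7 in the second, and NCAM2 held 59 and 55, then 10 and 32. Stretches of 100 bases under intronic peaks shared by all 4 lists are given for 3 of these genes. They are read from GRCh37 (hg19) on the strand of the gene, since the lists give no strand. Each is the middle of the shared peak with the highest lowest score in its gene. These peaks span 728 bp in SCHLAP1, 561 bp in NETO1 and 1046 bp in NCAM2. Which bases and which strand PSF bound there is not known. SCHLAP1 is a prostate long noncoding RNA and all 3 stretches lie within introns: chr2:181709334-181709433 (plus strand), chr18:70473813-70473912 (minus) and chr21:22443059-22443158 (plus).
SCHLAP1: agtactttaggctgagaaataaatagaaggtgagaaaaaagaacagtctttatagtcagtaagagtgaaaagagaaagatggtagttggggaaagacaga
NETO1: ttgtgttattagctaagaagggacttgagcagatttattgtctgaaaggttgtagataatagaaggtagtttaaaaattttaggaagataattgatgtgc
NCAM2: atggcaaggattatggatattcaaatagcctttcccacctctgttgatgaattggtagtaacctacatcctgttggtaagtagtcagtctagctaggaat
Purines made up 74.0% of the bases in SCHLAP1, 60% in NETO1 and 50% in NCAM2. The authors' score of these shared peaks, lowest over the 4 lists, was 242 in SCHLAP1, 231 in NETO1 and 186.0 in NCAM2. A peak in each of the 4 lists, whether or not at the same site, was found in 69 of the 1070 genes higher in LTAD (6.45%). The same held for 102 of the 1276 lower genes (7.99%) and for 669 of 10634 genes that were not called (6.29%). Both shares of called genes were near that of the uncalled genes, and the median span of the genes was 41087 bp, 20575.5 bp and 25183 bp in that order.

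Across all called genes the inputs mostly moved the same way. Of the 1070 genes higher in LTAD in PSF-RIP, 242 (22.6%) were also called higher in input, where 2.92% of 10821 tested genes were. A further 617 (57.7%) had the same sign in input without passing, 26 (2.43%) had the opposite sign and 185 (17.3%) had too few input reads to be tested. Of the 1276 lower genes, 443 (34.7%) were called lower in input, where 5.1% were, 587 (46.0%) had the same sign, 27 (2.12%) the opposite sign and 219 (17.2%) were not tested. Calls in opposite directions were found for 0 genes. Inputs had fewer reads, and 868 genes (8.02%) passed in them in all.

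Intronic reads gave 1845 calls among 11476 genes (16.1%), 1089 higher (9.49%) and 756 lower (6.59%), after scaling to their own totals. With the exonic scaling, which keeps the smaller intronic share of LTAD, the split was 287 higher and 4828 lower, around a median of -0.64 over all genes. With the intronic scaling, 394 of the 886 exonically higher genes with enough intronic reads were also called higher, and 382 of 1041 lower genes were called lower. In 5 and 2 genes the intronic call was opposite to the exonic one.

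**Figure D2:**
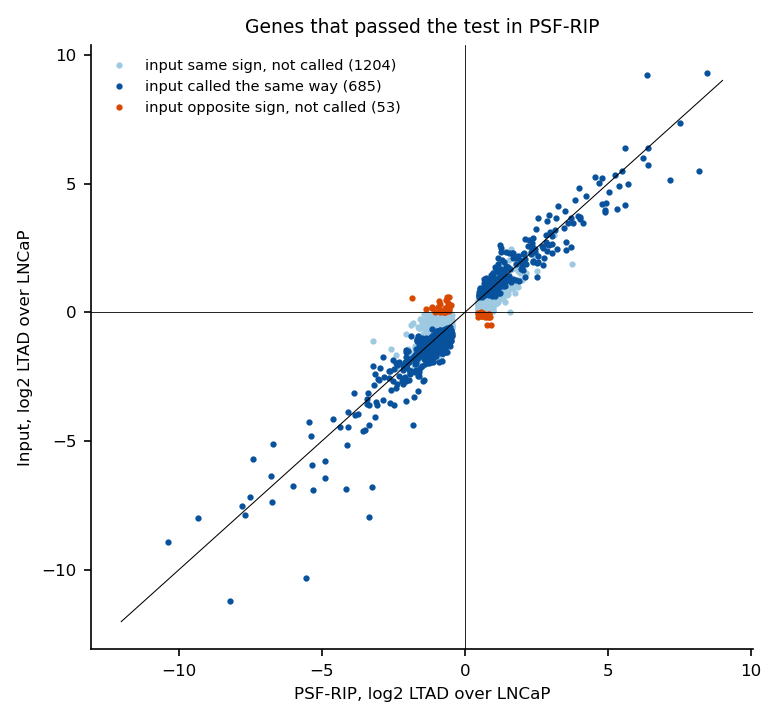
Log2 of LTAD over LNCaP in PSF-RIP (x axis) and input (y axis) for called genes that were tested in both, with the line of equal difference. Dark blue marks the 685 genes also called in input, light blue 1204 with the same sign and orange 53 with the opposite sign, whose input differences have a median size of 0.13 and reach 0.59.

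Of 19 paraspeckle proteins and RNAs tested, NEAT1 was lower in LTAD and HNRNPM, an hnRNP protein, higher (log2 0.64), which is 5.3% in each direction and below the shares of all genes. HNRNPM did not pass without either vehicle library or the LTAD DHT library. SFPQ itself (chr1:35649201-35658743) had 337 and 346 CPM in LTAD against 436 and 432 CPM in LNCaP (log2 -0.35 ± 0.14 (SE), adjusted p = 0.106), which did not pass; a fit over 12 libraries took it past the threshold. NONO was at log2 -0.2 (adjusted p = 0.358) and PSPC1 at -0.05 (adjusted p = 0.872). NEAT1 (chr11:65190269-65213009) had 539.6 and 402 CPM in LTAD against 2123 and 1459 CPM in LNCaP, without overlap and by log2 -1.92 ± 0.15 (SE), adjusted p = 4.80e-05. In input it had 1104 and 722 CPM in LTAD against 3671 and 2651 CPM in LNCaP, log2 -1.80. MALAT1 (chr11:65265233-65273983), a nuclear long noncoding RNA, had 23870.0 and 23120.0 CPM in LTAD against 94270.0 and 99800.0 CPM in LNCaP (log2 -2.05 ± 0.17 (SE), adjusted p = 8.72e-05). Its input difference was log2 -1.44 (adjusted p = 1.50e-05), and the difference between the assays, -0.59, had an unadjusted p of 0.0465 and did not pass after adjustment.

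Of 19 nuclear and prostate long noncoding RNAs tested, 6 (31.6%) were lower in LTAD and 0 higher, against 9.83% lower and 8.24% higher over all genes. The list median was -0.28 against -0.00105 over all genes. SCHLAP1 had 22.8 and 29.2 CPM in LTAD against 85.7 and 80.5 CPM in LNCaP (log2 -1.68 ± 0.19 (SE), adjusted p = 4.35e-04), and its input also passed (log2 -1.06). Its intronic reads were at log2 -0.40 and did not pass. CTBP1-AS, an antisense RNA at the locus of the corepressor CTBP1, had 2.93 and 23.1 CPM in LTAD against 18.9 and 61.2 CPM in LNCaP (log2 -1.87 ± 0.30 (SE), adjusted p = 0.00367), with input at -0.47 and not past the threshold. Of 18 snoRNA host genes, whose introns carry small nucleolar RNAs, 10 (55.6%) were lower and 0 higher. SNHG5 had the largest difference of the 10, log2 -2.38 (adjusted p = 0.0052), with 19 reads in the LTAD libraries. SNHG1 was at log2 -1.58 (adjusted p = 2.75e-04, input -1.17), ZFAS1 at -1.18 and SNHG4 at -1.1. The list median was -0.80 in PSF-RIP and -0.36 in input, and 2 of the 10 were called lower in input. Without the LNCaP vehicle library 5 passed. Of 17 structured RNAs tested, 6 (35.3%) were lower and 0 higher. Among the lower were the telomerase RNA TERC (log2 -1.23, adjusted p = 0.0144) and the Cajal body RNA SCARNA7 (-1.7, adjusted p = 3.26e-04), both also called in input. Without the LTAD vehicle library 3 of the 17 were lower.

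Genes of SR proteins, CLK kinases and associated cyclins, which regulate splicing, were lower where they changed. Of 22 SR proteins, CLK kinases and associated cyclins, 10 (45.5%) were lower in LTAD and 0 higher. CLK1, a kinase that phosphorylates SR proteins, had 47.4 and 44 CPM in LTAD against 165 and 90.9 CPM in LNCaP (log2 -1.43 ± 0.20 (SE), adjusted p = 0.00161). CCNL1, cyclin L1, had 74.9 and 61.6 CPM in LTAD against 213 and 127 CPM in LNCaP (log2 -1.28 ± 0.16 (SE), adjusted p = 0.00107), and RSRP1 was at log2 -1.48. In input, 1 of the 10 (CCNL2, log2 -1.16) was called and the other 9 had the same sign. The count was 5 without the LNCaP vehicle library and 6 without the LTAD vehicle library. The core spliceosome moved less, with 6 higher and 3 lower of 65, below or near the share of all genes in each direction. SNRPB, a core snRNP protein, was at log2 0.88 and PRPF38B at -0.9. Of 27 hnRNP genes 4 (14.8%) were higher, among them HNRNPM (log2 0.64), against 8.24% over all genes. The 2 lower were HNRNPDL (-0.67) and SYNCRIP (-0.52), a share of 7.4% that is below the 9.83% over all genes. Leaving out 1 library gave 0 to 1 higher and 0 to 2 lower hnRNP genes.

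Androgen-regulated genes split. Of 39 androgen-induced genes, 12 (30.8%) were higher in LTAD and 10 (25.6%) lower, with a median of 0.05. TMPRSS2, a serine protease gene, had 12.1 and 154 CPM in LTAD against 67.8 and 846 CPM in LNCaP (log2 -2.47 ± 0.15 (SE), adjusted p = 1.42e-05), with DHT above vehicle in both lines. Without the LTAD vehicle or the LNCaP DHT library it did not pass (log2 -1.94 and -1.36). SPOCK1, a secreted proteoglycan, had 6.38 and 55.2 CPM in LTAD against 0.479 and 1.16 CPM in LNCaP (log2 5.05 ± 0.45 (SE), adjusted p = 1.21e-04), with the LTAD DHT library highest. Inputs were called the same way for 7 of the 12 higher and 8 of the 10 lower genes. Without the LTAD DHT library 2 of the induced genes were called higher, and 6 without either LNCaP library.

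Of 13 androgen-repressed genes, 10 (76.9%) were lower in LTAD and 2 (15.4%) higher, against 9.83% and 8.24% over all genes. The list median was -1.17 in PSF-RIP and -1.64 in input. Some of this list and of the induced list had been chosen on these libraries. FOLH1, prostate-specific membrane antigen, had 113 and 49 CPM in LTAD against 348 and 234 CPM in LNCaP (log2 -1.93 ± 0.17 (SE), adjusted p = 1.32e-04), and ST3GAL1, a sialyltransferase, had 861 and 394 CPM in LTAD against 2632 and 1403 CPM in LNCaP (log2 -1.72 ± 0.15 (SE), adjusted p = 1.01e-04). BCHE, butyrylcholinesterase, had 1 read in the LTAD libraries and 167 in LNCaP, a ratio of 286 in favour of LNCaP (exact 95% interval 50.7 to 11380). Both measured UGT2B enzymes that passed, UGT2B15 (log2 -1.17) and UGT2B17 (-0.95), which inactivate androgens by glucuronidation, were lower; near-identical copies in this family make their counts uncertain. Neither passed without the LTAD vehicle library or without the LNCaP vehicle library, and UGT2B17 passed with none of the 4 libraries left out. Prostate surface and secreted proteins followed the same direction, with 8 of 16 (50.0%) lower and 1 (6.2%) higher. ACPP, prostatic acid phosphatase, had 19 and 11.4 CPM in LTAD against 111 and 35.8 CPM in LNCaP (log2 -2.13 ± 0.24 (SE), adjusted p = 4.88e-04), and AZGP1 was at log2 -2.37.

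ETV1, an ETS factor, was higher in LTAD (log2 0.75, input 1.02) but did not pass without the LTAD DHT library (0.31) or either LNCaP library (0.74 and 0.71), and of 14 lineage factors tested EHF was the 1 lower. Among 21 nuclear receptor coregulators 3 were higher, such as KDM1A (log2 0.67), and 2 lower, such as TLE1 (-1.45), which is 14.3% and 9.5% of the list. Without either vehicle library 0 passed in each direction.

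Interferon-response genes were lower in LTAD. Of 25 tested, 16 (64.0%) were lower and 0 higher, against 9.83% lower over all genes, and the list median was -1.03 in PSF-RIP and -0.999 in input. IFI6 had 38 and 28.2 CPM in LTAD against 359 and 149 CPM in LNCaP (log2 -2.83 ± 0.21 (SE), adjusted p = 3.80e-05). HLA-B, a class I antigen-presenting molecule, had 33.3 and 26.6 CPM in LTAD against 210.0 and 115.8 CPM in LNCaP (log2 -2.39 ± 0.18 (SE), adjusted p = 4.33e-05), and HLA-C had 90.9 and 57.5 CPM in LTAD against 308 and 189 CPM in LNCaP. In these 3 genes every LTAD library lay below both LNCaP libraries, and the inputs passed the same way (log2 -2.51, -2.94 and -1.87). IFI44L had 1 read in the LTAD libraries and 150 in LNCaP, a ratio of 257 in favour of LNCaP (exact 95% interval 45.5 to 10220). Of the 16, 10 were called lower in input, 3 had the same sign and 3 were not tested. HLA genes lie on the short arm of chromosome 6, whose first 60 Mb had lower levels in LTAD as a whole, described with the chromosomes. Outside the low regions of chromosomes 4, 6 and 11, 11 of 18 interferon genes were lower. Summed over the tested members, DHT libraries stood at 0.926 times vehicle in LTAD and 0.515 times in LNCaP. The count was 8 without the LTAD vehicle library and 6 without the LNCaP vehicle library.

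Cell-cycle genes were higher in LTAD with vehicle. Of 32 tested, 14 (43.8%) were higher and 0 lower, against 8.24% higher over all genes. The list median was 2.34 in vehicle libraries and 0.26 in DHT libraries. TOP2A, the DNA topoisomerase of dividing cells, had 91.1 and 75.7 CPM in LTAD against 6.22 and 41.3 CPM in LNCaP (log2 2.1 ± 0.51 (SE), adjusted p = 0.0222). CCNB1, cyclin B1, had 92.3 and 81.3 CPM in LTAD against 18.2 and 52.5 CPM in LNCaP (log2 1.43 ± 0.33 (SE), adjusted p = 0.0174), and CDC20, an activator of the anaphase-promoting complex, had 34.7 and 30.7 CPM in LTAD against 4.07 and 13.9 CPM in LNCaP (log2 1.99 ± 0.39 (SE), adjusted p = 0.00932). In these 3 genes the LNCaP vehicle library was the lowest and the LTAD vehicle library the highest. Summed over the list, PSF-RIP gave 2660 and 1709 CPM in LTAD against 650 and 1508 CPM in LNCaP, and input gave 1691 and 1075 CPM in LTAD against 416 and 925 CPM in LNCaP. Of the 14, inputs were called the same way for 4, 9 had the same sign and 1 was not tested. The calls rest on the vehicle libraries, with 1 without the LTAD vehicle library, 1 without the LNCaP vehicle library and 27 and 28 without the LTAD and LNCaP DHT libraries. Replication-dependent histones, which are made in S phase, had a median of 1.77 in vehicle and 0.01 in DHT libraries, with 1 of 31 called (HIST1H3I, log2 2.44).

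**Figure D3:**
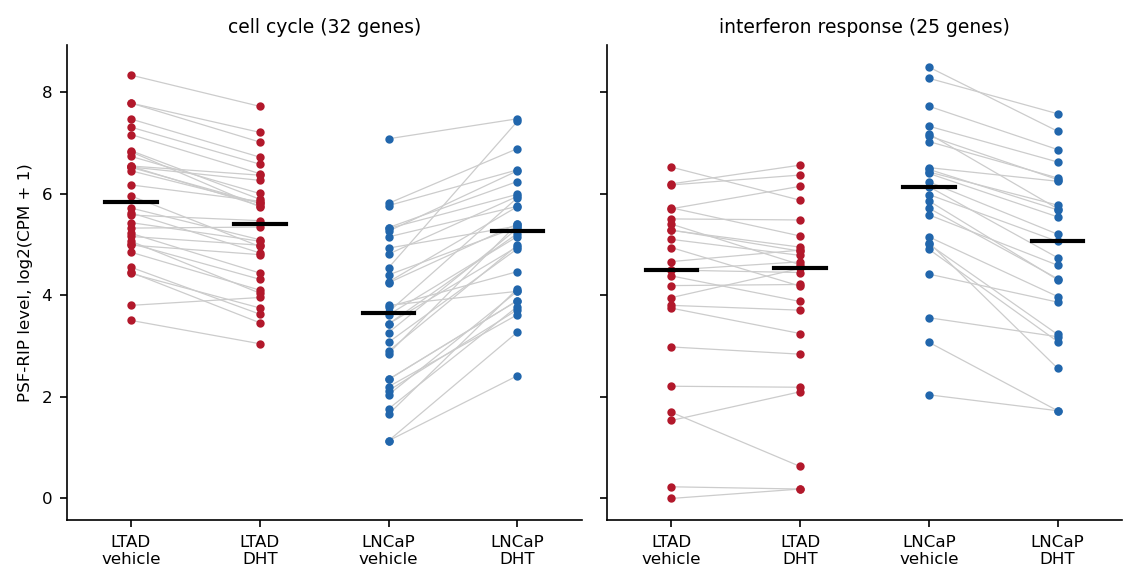
PSF-RIP level, as log2(CPM + 1), of the 32 cell-cycle and 25 interferon-response genes tested, in the LTAD (red) and LNCaP (blue) libraries; each point is a gene, grey lines join its vehicle and DHT values within a line and black bars are medians. The cell-cycle bar is lowest in LNCaP vehicle, and the interferon bars of LTAD lie below those of LNCaP.

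Genes of the unfolded protein response were mostly higher where they changed, 12 of 30 against 1 lower. HSPA5, the chaperone BiP of the endoplasmic reticulum, had 548 and 657 CPM in LTAD against 200.4 and 345 CPM in LNCaP (log2 1.19 ± 0.16 (SE), adjusted p = 0.00161), and PDIA4, a protein disulfide isomerase, had 565 and 673 CPM in LTAD against 249.5 and 356 CPM in LNCaP (log2 1.05 ± 0.14 (SE), adjusted p = 0.00163). HSP90B1 was at log2 1.06 and the amino acid gene ASNS at 1.07; ATF4, a transcription factor of the response, was the 1 lower (log2 -0.57, opposite in sign in input). Inputs were called the same way for 5 of the 12. The count was 5 without the LTAD vehicle library and 4 without the LNCaP vehicle library. In the synthesis of cholesterol and androgens, 6 of 27 genes (22.2%, against 8.24% over all genes) were higher, such as FDPS (log2 0.81), HMGCS1 (0.74) and SQLE (0.86). Another 4 (14.8%, against 9.83% over all genes) were lower, such as SREBF1 (-0.74), the regulator of lipid synthesis. None of the 6 was called in input, and all 6 had the same sign there.

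Among markers of cell identity, luminal epithelial genes gave 4 lower (26.7%) and 1 higher (6.7%) of 15, against 9.83% and 8.24% over all genes. CLDN4 (log2 -0.88), OCLN (-1.03) and CDH1 (-0.57), which encode junction proteins, were among the lower. The other was CRB3 (-0.63). The 4 lower genes did not pass without a treatment term, and OCLN and CRB3 also not in DESeq2. Intronic reads of OCLN (-0.47) and CDH1 (-0.18) did not pass. The 1 higher gene was at log2 1.31, a larger size than any of the 4 lower, and was also called in input. Of 7 mesenchymal genes tested, 4 (57.1%) were higher and 1 (14.3%) lower. THBS1, thrombospondin-1, had 76.4 and 107 CPM in LTAD against 6.46 and 18.2 CPM in LNCaP (log2 2.99 ± 0.25 (SE), adjusted p = 7.69e-05). VIM, vimentin, had 115.7 and 100.4 CPM in LTAD against 55.5 and 43.9 CPM in LNCaP (log2 1.12 ± 0.16 (SE), adjusted p = 0.0017), while FN1, fibronectin, was lower (log2 -1.09). SNAI2 (2.14) reversed without the LTAD DHT library. The number of mesenchymal genes higher was 2 without the LTAD DHT or either LNCaP library. Of 15 neuroendocrine and neural genes, 3 were higher, among them ENO2, neuron-specific enolase (log2 1.19), and AUTS2 (1.08), and 4 were lower, among them NCAM2. Of 22 p53 targets, 4 were lower and 0 higher, with CDKN1A, the inhibitor p21, at log2 -1.54 (input -1.49) and GDF15 at -1.08, and 0 of the 22 passed without the LNCaP vehicle library. The lower p53 targets made up 18.2% of their list, against 9.83% lower over all genes. In the WNT pathway 2 of 17 were higher, such as FZD8 (log2 2.12), and 2 lower, such as the ligand WNT5A (-2.64). That is 11.8% in each direction and near the shares of all genes. The share of calls among cytosolic ribosomal proteins (0 higher and 9 lower of 75) and nuclear genes of oxidative phosphorylation (6 higher and 3 lower of 76) stayed below or near that of all genes in each direction. The other lists gave 1 higher and 2 lower of 5 basal genes, 0 and 1 of 4 stromal and leukocyte genes, 0 and 3 of 10 cancer-testis genes, 2 and 0 of 35 clustered protocadherins and 0 and 2 of 15 genes of the mitochondrial genome.

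**Figure D4:**
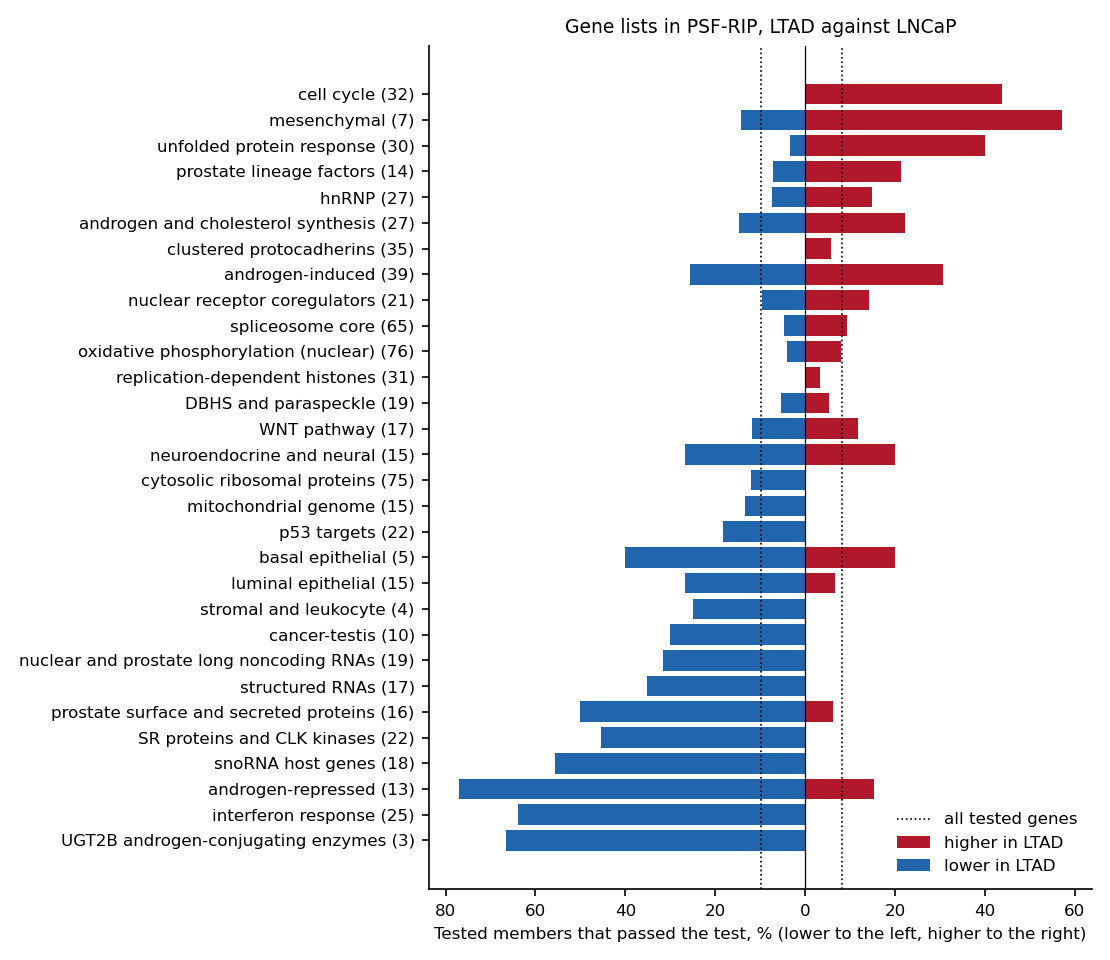
Percentage of the tested members of each list (number tested in brackets) that passed the threshold in PSF-RIP, higher in LTAD to the right (red) and lower to the left (blue). Dotted lines mark the 8.24% higher and 9.83% lower of all tested genes; the interferon bar reaches 64.0% on the lower side and the cell-cycle bar 43.8% on the higher side.

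Calls were unevenly spread over the chromosomes. On chromosome 11, 189 of 727 tested genes (26.0%) were lower in LTAD and 21 (2.89%) higher, with a median of -0.33 in PSF-RIP, -0.33 in input and -0.31 in intronic reads. All 12 windows of 10 Mb on it had a median below 0, and MALAT1, NEAT1 and EHF lie there. On chromosome 6, the first 60 Mb had 101 of 397 genes lower, with a median of -0.37 (input -0.31), against -0.06 for the rest of the chromosome (input -0.06). On chromosome 4, genes beyond 100 Mb had 54 of 184 lower and a median of -0.48 (input -0.50), against 0.05 before 100 Mb. The boundaries were chosen after the counts by chromosome had been seen. Of 237 windows of 10 Mb with at least 20 tested genes, 19 had a median below -0.3, and 16 of these were on chromosomes 4, 6 and 11. Chromosome 18 had the highest share of higher genes, 34 of 193 (17.6%), followed by X with 59 of 446 (13.2%). Outside the 3 low regions, 7.98% of 11672 tested genes were lower and 8.87% higher.

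**Figure D5:**
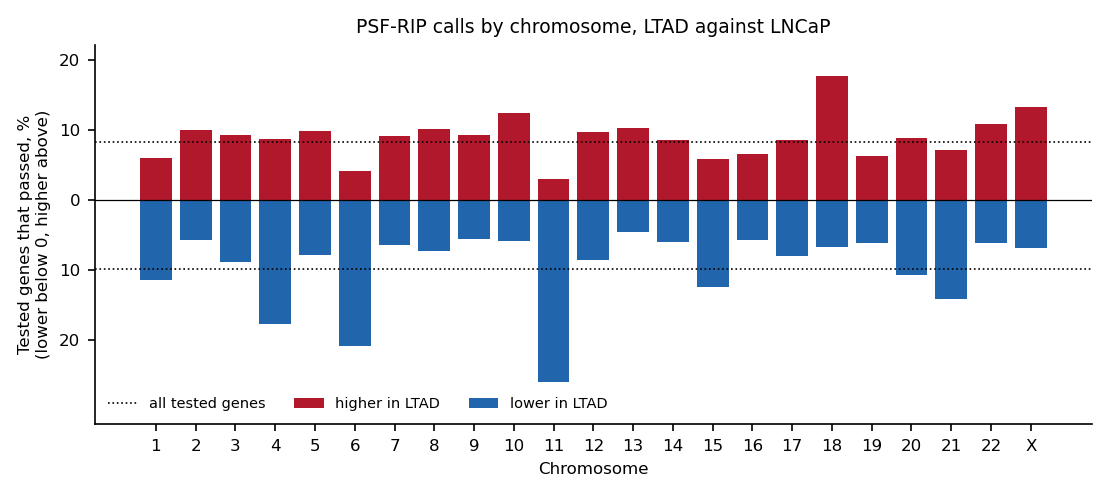
Percentage of tested genes on each chromosome that passed the threshold in PSF-RIP, higher in LTAD above 0 (red) and lower below 0 (blue), with dotted lines at the shares of all tested genes. Chromosome 11 reaches 26.0% on the lower side, followed by 6 (20.8%) and 4 (17.7%).

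Whether recovery with PSF itself differed between the lines was tested as the LTAD over LNCaP difference in PSF-RIP minus that in input. By edgeR 0 of 12491 genes (0%) passed, 591 had an unadjusted p under 0.05, and DESeq2 also gave 0, with 65. With each line and treatment as a block shared by its input and PSF-RIP library, 291 genes (2.33%) passed, 174 of them with a higher and 117 with a lower difference. This blocked fit has 1 residual degree of freedom and assumes that input and PSF-RIP libraries were paired, which is not shown, so its adjusted p-values are uncertain. GNG5, a G protein gamma subunit, was the gene of the named set with the smallest unadjusted p. It had 31.9 and 29.2 CPM in LTAD against 66.1 and 69.3 CPM in LNCaP in PSF-RIP (log2 -1.15, adjusted p = 0.00274) and 147 and 173 CPM in LTAD against 139 and 138 CPM in LNCaP in input (log2 0.21). The lines were apart in PSF-RIP, whereas their inputs lay close together with LTAD slightly above. The difference was -1.34 ± 0.21 (SE), with an unadjusted p of 2.46e-04 and an adjusted p of 0.89. The blocked fit gave nearly the same size, -1.35 ± 0.17 (SE), with an adjusted p of 1.72e-11. VAMP2, a vesicle SNARE protein, had 49.3 and 40.3 CPM in LTAD against 125 and 105 CPM in LNCaP in PSF-RIP and 65.9 and 55.3 CPM in LTAD against 89.5 and 64 CPM in LNCaP in input, a difference of -1.02. FAM136A differed by -1.11, with LTAD lower in PSF-RIP (log2 -0.66) and higher in input (0.46), where it was not called. KLK4, a kallikrein protease, differed by -0.97, with log2 -0.88 in PSF-RIP and 0.10 in input. HSBP1L1 (-1.14) and C1orf35 (-1.20) completed the 6 lowest. Neither of these was called in PSF-RIP by DESeq2, without the expression filter or after thinning. FAM136A was not called by DESeq2 or without the filter. KLK4, whose libraries overlapped between the lines, was not called without a treatment term. GNG5 and VAMP2 kept their calls in these settings. In the blocked fit VAMP2, FAM136A, KLK4 and HSBP1L1 passed (adjusted p = 3.20e-04, 9.21e-07, 4.06e-05 and 1.41e-05). The 6 lowest and 6 highest genes were chosen by this same difference in the same libraries. That choice favours their passing, so these passes are not independent support.

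At the other end, the input difference was larger than that in PSF-RIP. PARP14, an ADP-ribosyltransferase, was at log2 -2.47 in PSF-RIP and -3.60 in input, MFSD6 at -0.78 and -1.89 and the pseudogene ZNF767P at -0.89 and -1.92. The LTAD vehicle and DHT inputs held 3 and 2 reads for PARP14 and 9 and 5 for ZNF767P, so their input sizes are uncertain. For PARP14 the difference between the assays was 1.19 ± 0.61 (SE). Of PARP14, MFSD6 and ZNF767P, only MFSD6 passed in the blocked fit (adjusted p = 0.0094). The PSF-RIP call of MFSD6 was lost in DESeq2 and after thinning. FAM198B also belonged to the 6 highest (1.06), with 12 and 2 reads in the LTAD inputs. So did MMP16 and CLU, for which no difference is given because LTAD inputs held 0 reads. The mitochondrial transcript MT-ND1, which is not made in the nucleus, was at log2 -0.89 in PSF-RIP and -0.16 in input, a difference of -0.72 that did not pass without the block and passed with it (adjusted p = 0.00257).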

How the data were processed

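Counts were used as the authors deposited them. Per the file headers, the values of the PSF-RIP and input files are raw counts of reads that mapped uniquely, for exons of RefSeq transcripts, for introns, for antisense strands and for intergenic stretches (hg19), with no normalization. The submitters' processing notes name TopHat2 2.1.0, Bowtie2 2.2.6, Bowtie and GRCh37 without their roles. Per the labels' protocols, immunoprecipitation was done with EZ-Magna RIP reagents (Millipore) and library construction with SureSelect RNA (Agilent). The CLIP score is the authors' own, 1 value per deposited peak, in lists called per library that start at a score of 50, and serves only to rank peaks.

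Of 48606 transcript rows, 1 transcript per symbol was kept, that with the highest mean count, and 52 symbols with near-identical coordinates (within 5 bp) were dropped, leaving 20242 genes. edgeR 4.0.16 (R 4.3.3) was fitted with TMM scaling, its expression filter, a treatment term and a line term (1 residual degree of freedom for PSF-RIP, input and intronic reads), and Benjamini-Hochberg adjustment at 0.05 over all genes tested. The difference of PSF-RIP and input was the line by assay interaction over 8 libraries (2 residual degrees of freedom, and 1 with the block). Per-treatment log2 values use a prior count of 2. The fits were tested on simulated data. Libraries paired by line and treatment deviated together from the mean of their line and assay, with a correlation across 12491 genes of 0.516 in LTAD and 0.516 in LNCaP, where each line has 1 such pair of deviations; these hold any DHT response seen in both assays and do not show that cultures were paired. Intervals and floors (3 reads) cover counting error only.

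The named genes are SFPQ, NONO, PSPC1, KLK3, NEAT1 and MALAT1, the 12 highest and 12 lowest called genes with the same sign in both treatments and no overlap, the 6 highest and 6 lowest for the difference of PSF-RIP and input among called genes with at least 20 input reads, and up to 4 called members of each of 30 gene lists. Further list members named in the text were chosen after their values were seen. The members and lists were chosen with earlier results of these data known. Alternatives were the DESeq2 size factors and test (DESeq2 1.42.0), no expression filter, the longest transcript, 12 libraries in 1 fit, thinning, removal of a length trend, no treatment term, the block and leaving out each library. A second LNCaP set was not used, because its labels contradict each other, which left out 12 value columns. No immunoglobulin control was analysed here. Some items are not reported here.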

Additional observations from a re-analysis of the deposited data

Results flagged for a closer look

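The summed PSF-RIP level of the 32 cell-cycle genes moved in opposite directions with DHT in the lines. It was 0.642 times the vehicle level in the LTAD DHT library and 2.32 times in the LNCaP DHT library. In input the ratios were 0.635 and 2.22. With DHT, 2 of the 32 genes were higher in LTAD PSF-RIP and 32 of 32 in LNCaP PSF-RIP. There is 1 library per line, treatment and assay, so the difference was not tested. Of the 30 gene lists, 1 had ratios past 0.5 on the log2 scale in opposite directions in both assays. The replication-dependent histones came close, with 0.73 times the vehicle level in LTAD and 1.65 times in LNCaP in PSF-RIP, 0.562 and 1.77 times in input, and 2 and 30 of 31 genes higher with DHT in PSF-RIP.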

How the results depend on the processing

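For PSF-RIP, where 2346 genes passed, DESeq2 gave 742, no filter on low counts 1319, thinning to the smallest library 1482 and no treatment term 590. Leaving out 1 library in the 12-library fit gave 998 to 1886. For input, where 868 passed, DESeq2 gave 179 and no treatment term 278, and leaving out 1 library gave 285 to 435. For the difference of PSF-RIP and input, where 0 passed, the replicate block gave 291 and leaving out 1 library 0 to 1. Intronic reads gave 1845 calls, and 5115 with the exonic scaling, which moved the median of all genes to -0.64. The other alternatives stayed within 1.5 times of these counts. Of 129 named genes called in PSF-RIP, 49 passed in every alternative, and 1, SNAI2, reversed: it was at -0.40 to 2.87 with 1 library left out, and negative without the LTAD DHT library. PSPC1, which was not called, was at 0.043 after thinning. The cause was not tested. For MMP16 and CLU the difference of PSF-RIP and input is not given, since LTAD inputs held 0 reads. Both lines have 1 library per treatment, so DHT responses that differ between them enter the error. Input depth limits the comparison with PSF-RIP, since 185 higher and 219 lower genes were not tested in input.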
